A study of Arabidopsis thaliana with 12 samples.

Results

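The 10 genes described here are 7 enzyme genes of monolignol synthesis (C4H, 4CL1, HCT, C3H1, CCOAOMT1, CCR1 and CAD5) and 3 laccase genes (LAC4, LAC11 and LAC17) of Arabidopsis thaliana. They were chosen by gene identifier, they are 10 of the 27416 rows of the count table, and all 10 are among the 18807 genes that passed a filter on low counts. RNA sequencing of shoot apices gave 4 libraries each of WT (accession Col-0), of the ap2-12 mutant and of rAP2-VENUS line #A6. AP2 is a transcription factor of floral patterning and meristem maintenance, and VENUS is a yellow fluorescent protein. Neither the meaning of the letter r, nor the promoter of the construct, nor the state of the endogenous AP2 gene in this line is given in the labels, and a single line represents the construct. All 3 genotypes were kept in long days with a 16 h photoperiod and sampled once the main stem measured 1 cm. The extraction text names 15 apices without saying whether that is the number in each replicate.

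Lignin is the phenolic polymer that stiffens and waterproofs the walls of xylem vessels and fibres. Its precursors, the monolignols, are made from phenylalanine in the cytoplasm by a chain of hydroxylases, ligases, transferases, methyltransferases and reductases, which also feed flavonoids and other phenolics. The monolignols are then exported to the wall, where laccases, which are copper-containing oxidases, and peroxidases oxidise them to radicals that couple to the polymer. In an inflorescence apex lignin is laid down mainly where the vascular tissue matures below the meristem, so most of the tissue is not lignifying.

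In ap2-12 all 3 laccase genes fell about 3-fold against WT, 4CL1 and CAD5 also fell, and the other 5 enzyme genes did not pass in edgeR. In rAP2-VENUS none of the 10 passed against WT in edgeR without a replicate block. LAC4 and LAC17 were above all WT libraries in each of the 4 rAP2-VENUS libraries, as were 2.39% of all genes. Both passed with the block and in DESeq2, which called 1.1% and 0.819% of all genes higher. In 6 of the 7 enzyme genes the level also differed by replicate number, with replicate 1 or 2 highest in all 3 genotypes. None of the laccases passed the test of replicate number.

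Library totals ran from 9680133 to 15152704 counts. AP2 itself was at 57.5 ± 23.8 CPM (counts relative to the library total after TMM scaling; SD, n = 4) in WT, 17.2 ± 2.40 CPM in ap2-12 and 47.0 ± 7.77 CPM in rAP2-VENUS, and it was lower in ap2-12 than in WT (log2 fold change -1.73, edgeR adjusted p = 0.000302). Of the apex markers, STM, WUS, LFY and AP1 were read in every library, at least at 4.97 CPM, and CLV3 was at 0 to 0.521 CPM. None of the 15 xylem and secondary wall markers was at 0 in all libraries.

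The sequences shown here are those of the laccases, whose levels differed most between genotypes, with CCR1 for comparison. They are RefSeq sequences of build TAIR10.1, while the counts were made on TAIR10, and no coordinate was converted. MYB factors of the lignin pathway bind AC elements, and 3 forms were searched on both strands of the 250 bases before each gene start: AC-I (ACCTACC), AC-II (ACCAACC) and AC-III (ACCTAAC), which do not overlap in any of the 10 windows. An AC element was in 7 of the 10 windows, against 6.12% of all 27443 protein-coding genes and 6.14% of the 18729 that passed the filter. HCT, C3H1, CCR1, CAD5 and LAC11 hold AC-II, CCOAOMT1 holds AC-I, LAC17 holds AC-III, and C4H, 4CL1 and LAC4 hold none. A match of letters is a description and not a shown binding site. Capitals mark the AC element. The element lies 61 to 55 bases before the start in both LAC11 (chr5:779425-779674, minus strand) and LAC17 (chr5:24167746-24167995, plus strand), and 14 to 8 bases before it in CCR1 (chr1:5478353-5478602, plus strand). The LAC4 window (chr2:15933994-15934243, plus strand) is printed for contrast.
LAC11: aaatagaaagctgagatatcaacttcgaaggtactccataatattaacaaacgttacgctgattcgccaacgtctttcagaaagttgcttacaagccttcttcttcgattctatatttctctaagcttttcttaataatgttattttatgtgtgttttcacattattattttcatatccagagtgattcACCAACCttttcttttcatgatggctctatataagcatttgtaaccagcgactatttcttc
LAC17: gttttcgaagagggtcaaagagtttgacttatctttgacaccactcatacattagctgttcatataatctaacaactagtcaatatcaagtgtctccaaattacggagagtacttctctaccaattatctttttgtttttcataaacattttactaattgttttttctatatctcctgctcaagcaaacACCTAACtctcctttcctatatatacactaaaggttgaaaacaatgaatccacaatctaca
LAC4: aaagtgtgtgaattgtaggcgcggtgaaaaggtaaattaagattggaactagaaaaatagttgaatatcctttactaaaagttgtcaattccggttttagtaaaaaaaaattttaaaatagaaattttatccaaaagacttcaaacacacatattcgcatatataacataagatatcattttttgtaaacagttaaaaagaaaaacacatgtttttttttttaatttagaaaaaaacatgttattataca
CCR1: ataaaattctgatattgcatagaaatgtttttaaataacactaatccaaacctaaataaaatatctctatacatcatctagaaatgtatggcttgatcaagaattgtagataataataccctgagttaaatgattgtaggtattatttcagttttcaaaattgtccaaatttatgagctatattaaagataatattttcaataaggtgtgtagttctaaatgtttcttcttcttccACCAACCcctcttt

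Laccase transcripts are known targets of the microRNA miR397, so its match to each member was also read from the sequence. The mature forms are given in DNA letters with the seed, bases 2 to 8, in capitals: miR397a lies at chr4:2625960-2625980 on the plus strand and miR397b at chr4:7878730-7878750 on the minus strand, and they share the seed.
miR397a: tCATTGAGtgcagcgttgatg
miR397b: tCATTGAGtgcatcgttgatg
The best match in the coding sequence left 3 unpaired positions in LAC4 (chr2:15936120-15936140, plus strand) and 3 in LAC17 (chr5:24169068-24169088, plus strand), and 6 of 27444 coding genes had as few or fewer. Capitals mark the bases that pair with miR397a by Watson-Crick rules.
LAC4 site: agTCAACGCTGCACTtAATGA
LAC17 site: aATCAAtGCTGCACTtAATGA
LAC11 left 6 positions unpaired, as few or fewer being found in 1042 coding genes, and the 7 enzyme genes left 8 or 9. The microRNA itself was not analysed here.

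Levels of different genes were compared per kilobase of exon. In WT the hydroxylase gene C4H and the methyltransferase gene CCOAOMT1 were the highest of the 10, at 111 and 105 CPM per kb, with SDs that overlapped. CCR1, C3H1 and HCT followed at 36.5, 34.0 and 33.2 CPM per kb, which differed by less than their spread between libraries. CAD5 and 4CL1 were at 13.5 and 13.3 CPM per kb. The laccases were the lowest, with LAC4 at 4.74, LAC17 at 4.50 and LAC11 at 3.68 CPM per kb. In ap2-12 these were 1.56, 1.58 and 1.22 CPM per kb, and 4CL1 at 5.24 CPM per kb lay between them and CAD5 at 9.31. The laccase values rest on few reads, from 14 counts of LAC11 in ap2-12 replicate 1 to 236 counts of LAC4 in rAP2-VENUS replicate 2.

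**Figure D1:**
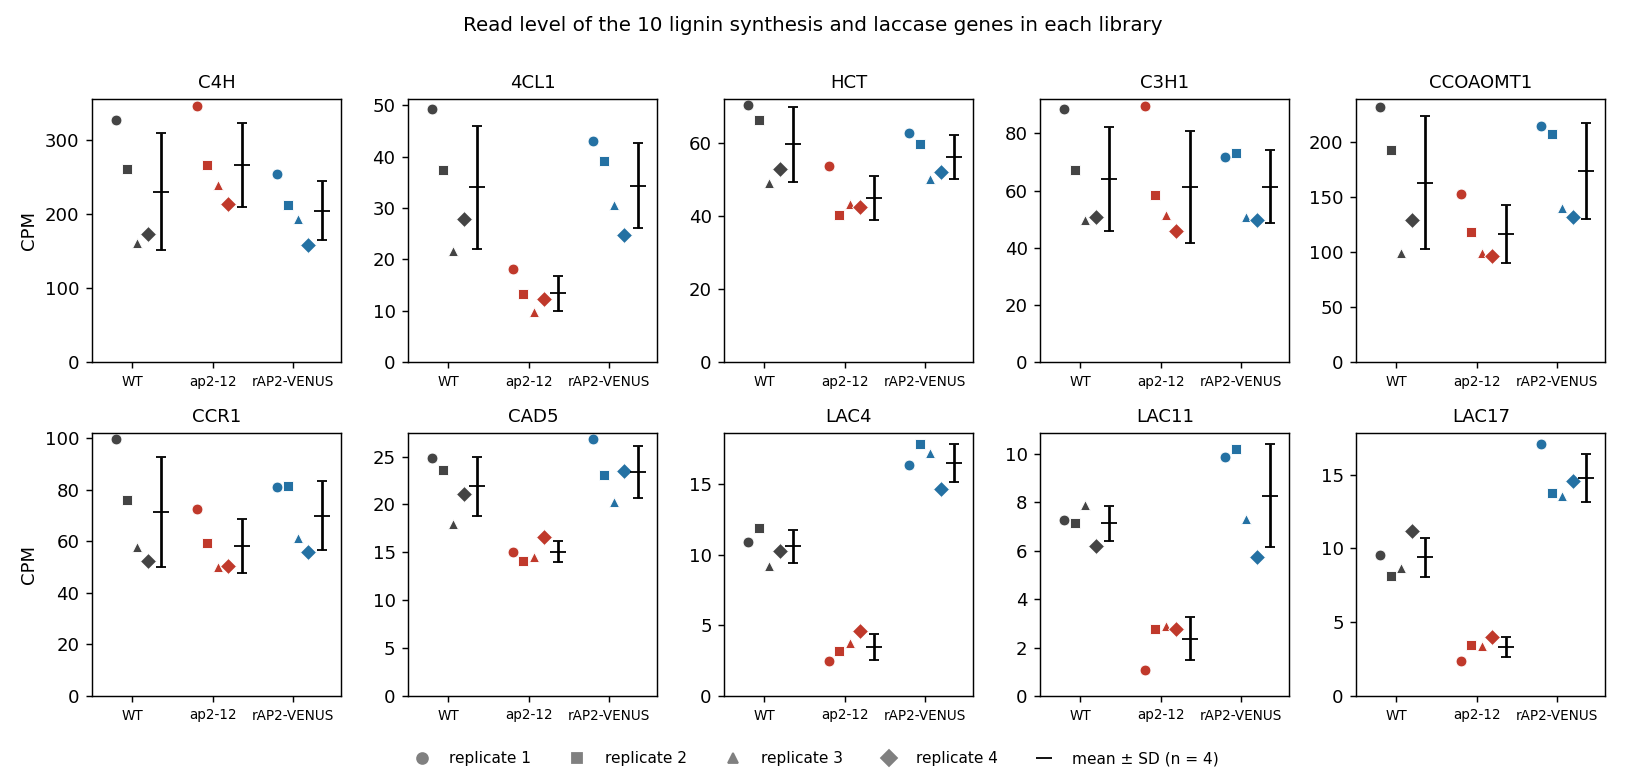
CPM of each of the 10 genes in the 12 libraries, with a marker shape for each replicate number and the mean ± SD of the 4 libraries of a genotype beside the points. The ap2-12 points lie below all WT points for 4CL1, CAD5, LAC4, LAC11 and LAC17, and replicate 1 is the highest point of every genotype for C4H, 4CL1, HCT and CCOAOMT1.

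C4H (AT2G30490), cinnamate 4-hydroxylase, is the cytochrome P450 of the entry into the pathway. It was read at 328, 261, 161 and 174 CPM in WT replicates 1 to 4, at 346, 267, 239 and 214 CPM in ap2-12 and at 254, 213, 194 and 159 CPM in rAP2-VENUS. The 3 genotypes overlapped. Its log2 fold change in ap2-12 was 0.21 (SE 0.23, adjusted p = 0.603), the only positive value among the 10. Against WT it was -0.17 in rAP2-VENUS (SE 0.23, adjusted p = 0.964).

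4CL1 (AT1G51680), a 4-coumarate:CoA ligase, activates the hydroxycinnamic acids. It was at 49.2, 37.4, 21.7 and 27.9 CPM in WT, at 18.1, 13.3, 9.88 and 12.4 CPM in ap2-12 and at 43.1, 39.2, 30.5 and 24.7 CPM in rAP2-VENUS. All ap2-12 libraries lay below all WT libraries, while the rAP2-VENUS libraries lay within the WT range. It was 2.53-fold lower in ap2-12 (log2 fold change -1.34, SE 0.26, adjusted p = 0.00409) and in rAP2-VENUS the log2 difference from WT was 0.02 (SE 0.25, adjusted p = 0.998).

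HCT (AT5G48930) and C3H1 (AT2G40890), which act as a pair, form and hydroxylate the shikimate ester of the pathway. HCT was at 70.5, 66.3, 49.1 and 53.0 CPM in WT, at 53.9, 40.5, 43.5 and 42.5 CPM in ap2-12 and at 62.8, 59.7, 50.3 and 52.2 CPM in rAP2-VENUS. Only ap2-12 replicate 1 reached the WT range. The log2 fold change in ap2-12 was -0.41 (SE 0.13), with an adjusted p of 0.0549 in edgeR and 0.0323 in DESeq2, which called 10.7% of all genes lower. C3H1 was at 88.7, 67.4, 49.6 and 50.8 CPM in WT, at 89.6, 58.5, 51.4 and 45.8 CPM in ap2-12 and at 71.9, 73.2, 50.8 and 49.8 CPM in rAP2-VENUS. Its values in the 3 genotypes interleaved, with log2 fold changes of -0.06 in both comparisons with WT (SE 0.24 each). The adjusted p was 0.892 for ap2-12 and 0.996 for rAP2-VENUS.

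CCOAOMT1 (AT4G34050), a caffeoyl-CoA O-methyltransferase, was at 232, 193, 98.9 and 129 CPM in WT, at 153, 118, 99.4 and 96.3 CPM in ap2-12 and at 215, 208, 140 and 132 CPM in rAP2-VENUS. Its groups overlapped, and its log2 fold change in ap2-12 was -0.48 (SE 0.26, adjusted p = 0.253). CCR1 (AT1G15950), cinnamoyl-CoA reductase, which commits the esters to monolignols, was at 99.6, 75.9, 57.7 and 52.3 CPM in WT, at 72.4, 59.4, 50.2 and 50.2 CPM in ap2-12 and at 81.1, 81.6, 61.1 and 56.0 CPM in rAP2-VENUS. The groups overlapped in both comparisons with WT, and the log2 fold change in ap2-12 was -0.29 (SE 0.20, adjusted p = 0.382).

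CAD5 (AT4G34230), a cinnamyl alcohol dehydrogenase of the closing reduction to the alcohols, was at 24.9, 23.6, 18.0 and 21.0 CPM in WT, at 15.1, 14.1, 14.5 and 16.6 CPM in ap2-12 and at 26.9, 23.1, 20.3 and 23.5 CPM in rAP2-VENUS. The 4 ap2-12 libraries lay close together and below all of WT. It was 1.45-fold lower in ap2-12 (log2 fold change -0.54, SE 0.12, adjusted p = 0.00793), the smallest of the 5 called changes. In rAP2-VENUS the log2 difference from WT was 0.10 (SE 0.12, adjusted p = 0.950).

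LAC4 (AT2G38080) and LAC17 (AT5G60020) are the laccases whose joint loss is known to lower stem lignin in Arabidopsis. LAC4 was at 10.9, 11.9, 9.21 and 10.3 CPM in WT, at 2.45, 3.15, 3.73 and 4.59 CPM in ap2-12 and at 16.4, 17.8, 17.2 and 14.7 CPM in rAP2-VENUS. The 3 genotypes did not overlap, with ap2-12 lowest and rAP2-VENUS highest. LAC4 was 3.03-fold lower in ap2-12 than in WT (log2 fold change -1.60, SE 0.17, adjusted p = 4.2e-05). LAC17 was at 9.58, 8.16, 8.70 and 11.2 CPM in WT, at 2.37, 3.48, 3.39 and 3.98 CPM in ap2-12 and at 17.1, 13.8, 13.6 and 14.6 CPM in rAP2-VENUS. It showed the same order without overlap and was 2.83-fold lower in ap2-12 (log2 fold change -1.50, SE 0.16, adjusted p = 5.9e-05).

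LAC11 (AT5G03260) acts redundantly with LAC4 and LAC17 in the lignification of vascular tissue in Arabidopsis. It was at 7.29, 7.15, 7.90 and 6.19 CPM in WT, at 1.07, 2.75, 2.90 and 2.77 CPM in ap2-12 and at 9.88, 10.2, 7.32 and 5.73 CPM in rAP2-VENUS. The ap2-12 libraries lay below all others, and rAP2-VENUS covered the WT range. LAC11 was 2.98-fold lower in ap2-12 (log2 fold change -1.58, SE 0.27, adjusted p = 0.00182). Without ap2-12 replicate 1, its lowest library, the log2 fold change was -1.35.

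Together, 5 of the 10 genes fell and 0 rose in ap2-12, against 15.2% of all 18807 genes called in either direction and 9.59% called lower. The same 5 did not overlap with WT, and 11% of all genes were lower in ap2-12 without overlap. The median log2 fold change was -0.51 over the 10 genes and 0.00 over all genes. Summed, the laccases were at 25.8 to 27.8 CPM in WT, at 5.88 to 11.3 CPM in ap2-12 and at 35.0 to 43.4 CPM in rAP2-VENUS, without overlap. The sum of the 7 enzyme genes overlapped throughout, at 456 to 892, 478 to 748 and 497 to 755 CPM.

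**Figure D2:**
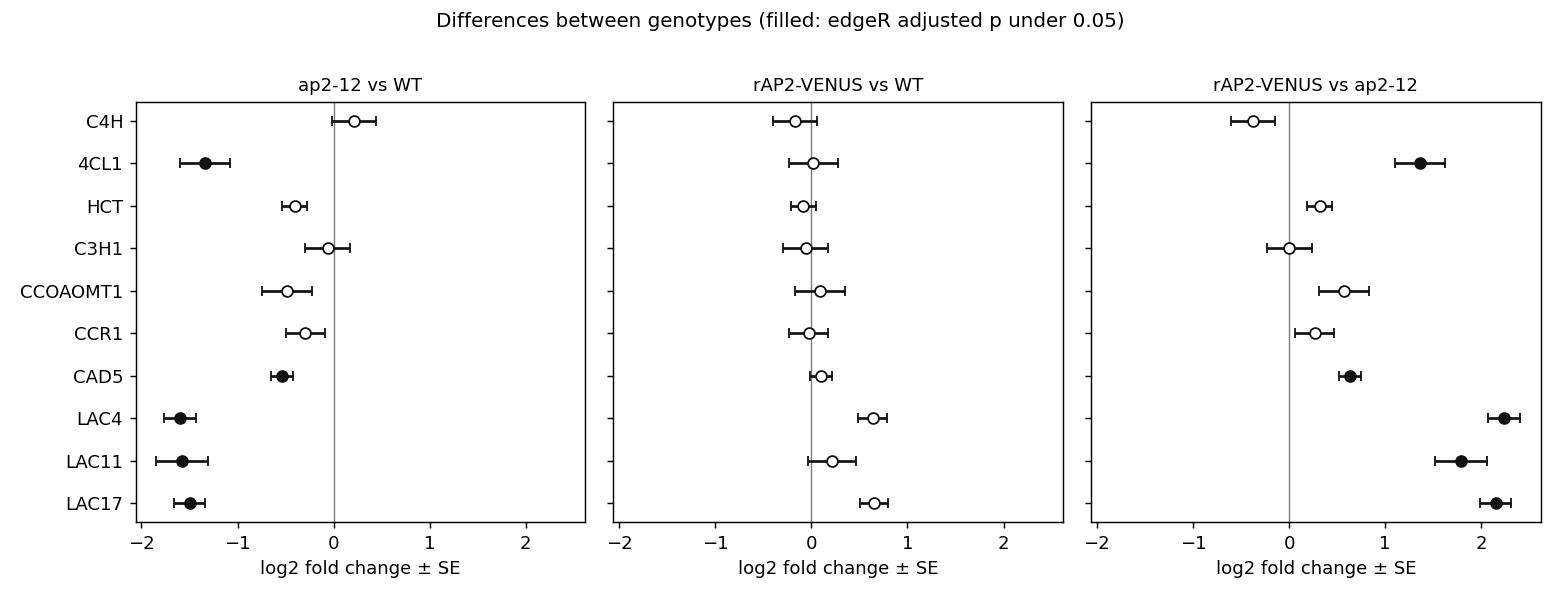
Log2 fold change with its SE for each gene in the 3 comparisons, from a fit to all 12 libraries (filled points: adjusted p under 0.05). Against ap2-12 the laccases of rAP2-VENUS lie between 1.79 and 2.24, and the panels against WT share the WT libraries.

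Several cell-type marker lists moved in ap2-12 as well. In whole apices, fewer cells of a type and less RNA per cell cannot be told apart. The 15 xylem and secondary wall markers summed to 91.5 to 108 CPM in WT and 43.6 to 54.0 CPM in ap2-12, with 11 of 15 lower and 0 higher. CESA4, a cellulose synthase subunit of secondary walls, had a value of -1.52 in log2 (SE 0.13, adjusted p = 9.81e-06). XCP1, a xylem cysteine protease, had -2.06 (SE 0.23, adjusted p = 8.5e-05). The laccase changes of -1.50 to -1.60 lay within the range of that list, -2.06 to 0.05, whose median was -1.18. Lower calls were also made for 3 of 4 phloem markers and 4 of 5 green tissue markers. The same held for 3 of the 4 apex markers tested and 1 of 4 procambium markers. Higher calls were made for 5 of 6 tapetum markers, and for 1063 of all 18807 genes. Of 4 epidermis markers edgeR called none and DESeq2 called FDH lower (adjusted p = 0.0339), and these sums overlapped at 1884 to 2560 CPM in WT and 1910 to 2305 CPM in ap2-12. The sums in WT and in ap2-12 were 82.1 to 105 and 52.0 to 68.9 CPM for phloem, 210 to 296 and 201 to 233 CPM for procambium, 10415 to 16456 and 6336 to 8787 CPM for green tissue, 257 to 312 and 126 to 145 CPM for the apex, and 191 to 440 and 387 to 1227 CPM for the tapetum. The part of these markers in the change of the laccases, 4CL1 and CAD5 was not tested.

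In rAP2-VENUS against WT, 0 of the 10 genes were called by edgeR, where 0.627% of all genes were called and 0.261% were called higher. LAC4 was at 16.5 ± 1.38 against 10.6 ± 1.14 CPM (SD, n = 4 each), 1.56-fold higher, and LAC17 at 14.8 ± 1.63 against 9.40 ± 1.31 CPM, 1.57-fold higher. Their log2 fold changes were 0.64 (SE 0.15, adjusted p = 0.102) and 0.65 (SE 0.15, adjusted p = 0.0866), and both genes were without overlap, as were 2.39% of all genes in that direction. With the replicate number as a block in a fit to all 12 libraries both were called (adjusted p = 0.0419 and 0.0295). The same fit called 1.1% of all genes in that direction. DESeq2 also called both (adjusted p = 0.00432 and 0.00504), among 0.819% of all genes called higher. In same-numbered pairs the log2 ratio was 0.58, 0.58, 0.90 and 0.51 for LAC4 and 0.84, 0.75, 0.64 and 0.39 for LAC17. All 4 pairs were higher for each gene, as any pairing of groups without overlap must be. LAC11 differed by 0.22 (SE 0.25, adjusted p = 0.952). The 7 enzyme genes had log2 fold changes between -0.17 and 0.10. The xylem and wall markers summed to 123 to 128 CPM in rAP2-VENUS, above the 91.5 to 108 CPM of WT. Of those 15, edgeR called none and DESeq2 called XCP1 higher (0.70, adjusted p = 0.033). A positive log2 fold change was found for 13. Of the other cell-type markers, edgeR called only 1 of 4 phloem markers, which was lower, as were 69 of all 18807 genes. DESeq2 called 1 phloem marker and 1 of 4 tested apex markers lower. All 6 tapetum markers had a positive log2 fold change, and neither tool called any. The part of all these markers in the laccase values was not tested.

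Setting rAP2-VENUS against ap2-12 gave 5 of 10 genes higher and 0 lower, where 19.6% of all genes were called and 11.7% were called higher. LAC4 stood 4.72-fold above ap2-12 (2.24 in log2, SE 0.17, adjusted p = 1.85e-06), LAC17 4.45-fold (2.15, SE 0.16, adjusted p = 2.07e-06) and LAC11 3.46-fold (1.79, SE 0.27, adjusted p = 0.000491). 4CL1 stood 2.57-fold above it (1.36, SE 0.26, adjusted p = 0.00276) and CAD5 1.55-fold (0.64, SE 0.12, adjusted p = 0.00198). The remaining values were 0.57 for CCOAOMT1, 0.32 for HCT, 0.27 for CCR1, 0.00 for C3H1 and -0.38 for C4H, with adjusted p between 0.110 and 0.992. The xylem and wall markers were higher in 11 of 15, with a median of 1.55. The ap2-12 libraries stand in this comparison and in the one with WT, and the WT libraries in both comparisons with WT, so these results are not independent of each other.

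Levels of most enzyme genes differed by replicate number. An edgeR F test of the replicate terms, with genotype in the model, called 6 of the 10 genes, where 29.5% of all genes were called. These were C4H (adjusted p = 0.00156), 4CL1 (0.00235), HCT (0.0224), C3H1 (0.0011), CCOAOMT1 (0.00141) and CCR1 (0.00134). CAD5 (adjusted p = 0.155), LAC4 (0.861), LAC11 (0.675) and LAC17 (0.576) did not pass. Averaged over the genotypes, replicate 1 of these 6 genes deviated from the genotype mean by 0.23 (HCT) to 0.47 (4CL1) on the log2 scale, and replicate 4 by -0.11 (HCT) to -0.33 (C4H). Replicates 1 and 2 were above replicates 3 and 4 in all 3 genotypes for C4H, 4CL1, C3H1, CCOAOMT1 and CCR1. The highest library exceeded the lowest of its genotype by 2.34-fold for CCOAOMT1, 2.26-fold for 4CL1, 1.3-fold for LAC4 and 1.28-fold for LAC11 in WT. In ap2-12 it did so by 1.59-fold for CCOAOMT1, 1.83-fold for 4CL1, 1.88-fold for LAC4 and 2.71-fold for LAC11, so the order of these spreads was not the same in both genotypes. The labels call the replicates independent and do not say what a number marks.

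**Figure D3:**
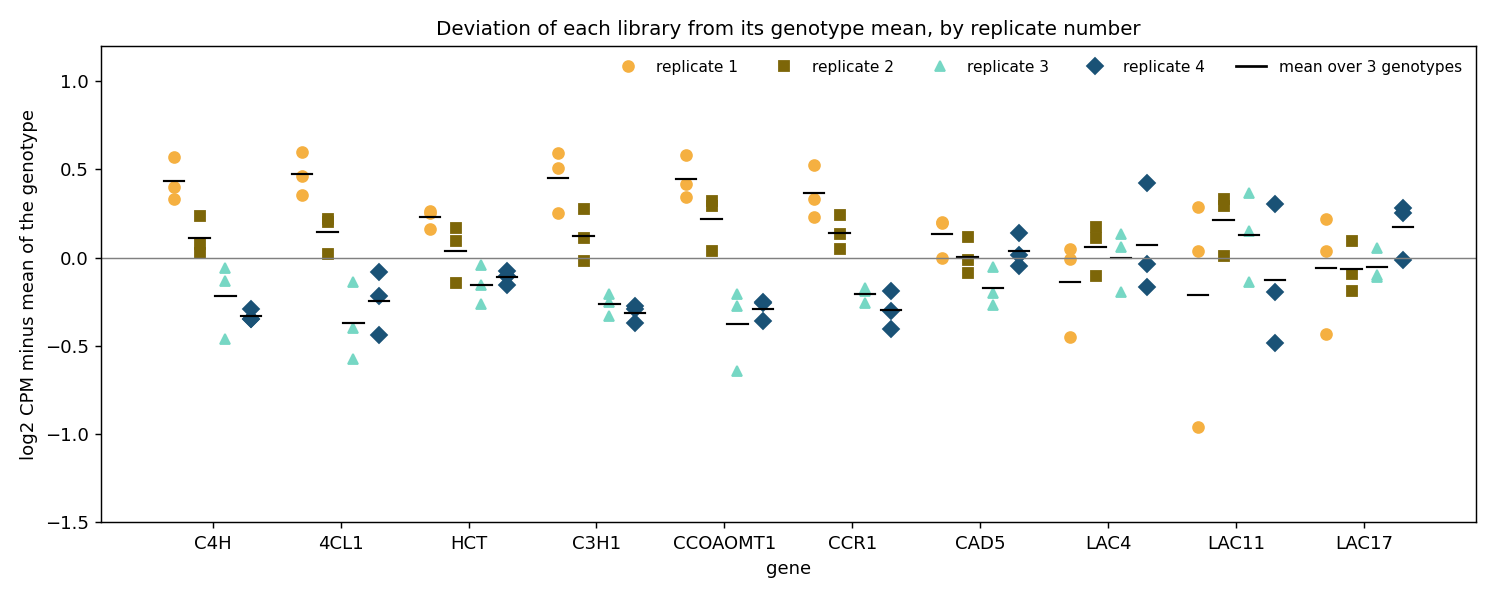
Deviation of each library from the mean of its genotype in log2 CPM, for the 4 replicate numbers of each gene (3 points per number, from the 3 genotypes; bars: their mean). Replicate 1 lies above 0 in all genotypes for the 6 enzyme genes from C4H to CCR1, and the laccase points show no such order apart from a LAC11 value of replicate 1 in ap2-12 that lies lowest.

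Neighbouring pathways were called by the same F test. All 7 tested genes of the flavonoid branch differed by replicate number (adjusted p from 0.00069 to 0.00103), as did 7 of 12 other monolignol enzymes, 6 of 9 genes of phenylalanine supply and 5 of 7 of the hydroxycinnamate branch. Their directions differed. SNG1, SHT, CYP98A8 and TSM1 of the hydroxycinnamate branch and DHS2 of phenylalanine supply were low in replicate 1 and high in replicate 4. In replicate 1 they deviated by -0.27, -1.88, -0.36, -1.87 and -0.34. The other called genes of these lists were above their genotype means in replicate 1. In WT, SHT and TSM1 were near 0. PAL1, a phenylalanine ammonia-lyase at the entry of the pathway, deviated by 1.03 in replicate 1 and by -0.70 in replicate 3 (adjusted p = 0.00179). PAL2 was also called, at 0.54 in replicate 1 (adjusted p = 0.00172). PAL3 (-0.05, adjusted p = 0.473) and PAL4 (-0.67, adjusted p = 0.517) did not pass. The 4 genes for Kelch F-box proteins, which are known to target phenylalanine ammonia-lyases for degradation, were all called, with signs opposite to PAL1. KFB20 was the most extreme, at -1.93 in replicate 1 and 1.23 in replicate 4 (adjusted p = 0.00204). KFB01, KFB39 and KFB50 were at -0.63, -0.65 and -0.80 in replicate 1. The PAL and F-box genes, SNG1 and DHS2 were named here after their values were seen, and any relation between them was not tested. None of the 15 xylem and wall markers (adjusted p from 0.190 to 0.978) and none of the 4 peroxidases was called, and 3 of 19 regulators and 1 of 5 other laccases were. Of the other cell-type markers, 3 of 5 for green tissue, 2 of 4 for procambium, 2 of 4 for phloem, 2 of 6 for the tapetum, 1 of 4 for the epidermis and 1 of 4 for the apex were called, and their part in the differences of the enzyme genes was not tested.

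The members were only partly alike across libraries. Over the 45 pairs of members, the median Pearson r of log2 CPM across the 12 libraries was 0.61, from -0.49 (C4H with LAC17) to 0.98 (LAC4 with LAC17). Among deviations from the genotype means the laccases correlated at 0.70 (LAC4 with LAC11), 0.60 (LAC11 with LAC17) and 0.55 (LAC4 with LAC17). With the mean standardised profile of the other members, these deviations had r between 0.69 and 0.89 for the enzyme genes and between -0.08 and 0.14 for the laccases. Enzyme genes are 7 of the 10 members, so this profile is weighted towards them and lower values for the laccases are partly built in. With genotype differences kept, r was 0.61 to 0.67 for the laccases, 0.10 for C4H and 0.55 to 0.96 for the remaining enzyme genes. These points share libraries, genotype and depth, so the values are descriptions. Genes that are no members and average at least 5 CPM were set against the mean profile of all 10 members. The 6 most like it over the 12 libraries were AXS2 (r = 0.99), NIT1 (0.98), CER1 (0.98), PIP2;5 (0.98), CESA6 (0.98) and AT2G35040 (0.98). AXS2 makes a nucleotide sugar, NIT1 is a nitrilase, CER1 acts in wax alkane synthesis, PIP2;5 is an aquaporin and CESA6 a cellulose synthase subunit of primary walls.

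Other genes of the pathway were taken from lists of known function. Of 12 other monolignol enzymes, 1 was lower and 0 were higher in ap2-12. It was COMT1, the caffeic acid O-methyltransferase of syringyl lignin, at 404, 334, 166 and 220 CPM in WT, at 125, 83.7, 72.1 and 62.8 CPM in ap2-12 and at 312, 302, 221 and 182 CPM in rAP2-VENUS. No ap2-12 library reached WT, and COMT1 was 3.27-fold lower (log2 fold change -1.71, SE 0.29, adjusted p = 0.00181), next to -1.60 for LAC4. 4CL5 (0.44, adjusted p = 0.118), CSE (-0.21, adjusted p = 0.310) and CCR2 (0.32, adjusted p = 0.317) did not pass. The median of the list was -0.02 on the log2 scale. In rAP2-VENUS none of the 12 was called, with CCR2 at 0.70 (adjusted p = 0.177) and 4CL5 at 0.37 (adjusted p = 0.665).

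**Figure D4:**
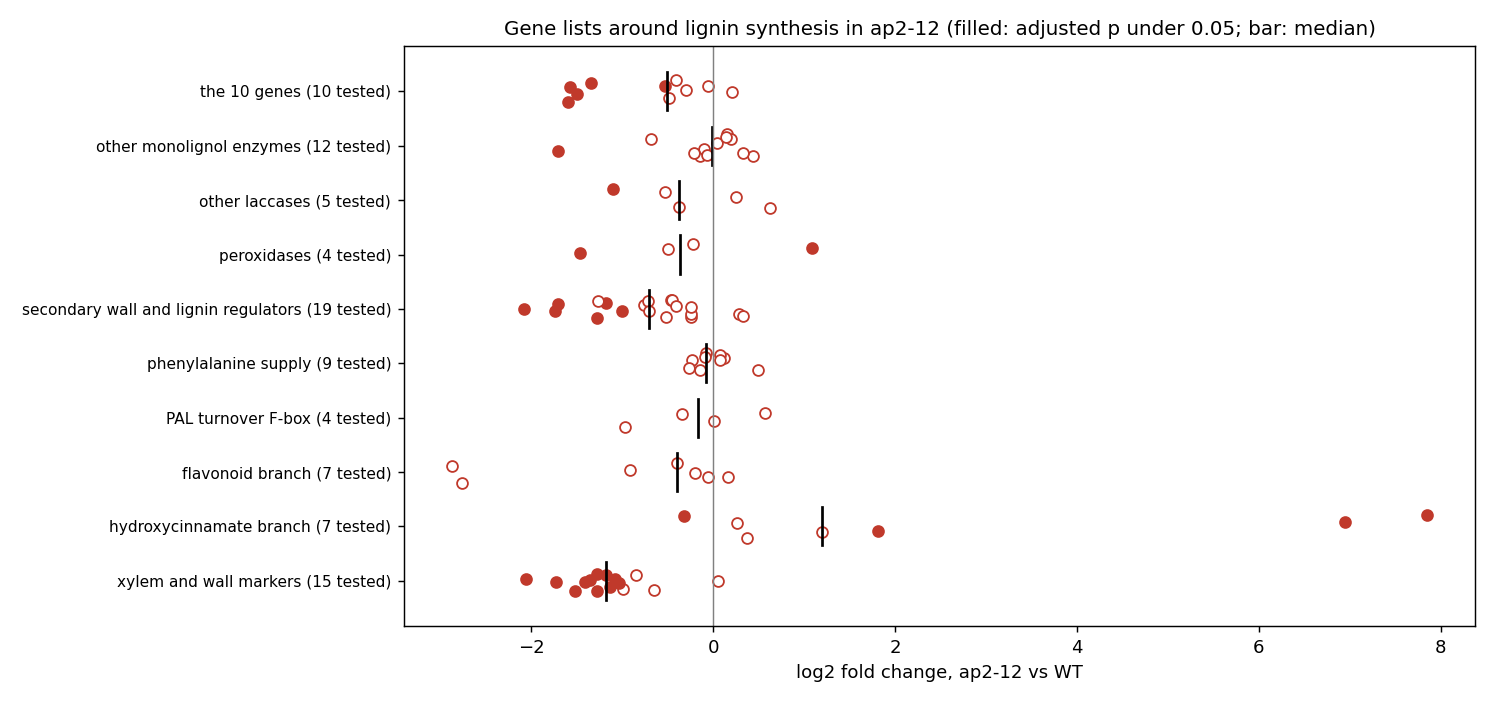
Log2 fold change in ap2-12 against WT for the tested genes of each list (filled points: adjusted p under 0.05; bars: list median). Several lower calls stand in each of the lists of members, regulators and xylem markers. COMT1, LAC10, PRX66 and REF1 are the only lower calls of the other monolignol enzymes, other laccases, peroxidases and hydroxycinnamate branch. No gene of the phenylalanine, F-box or flavonoid lists is filled.

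Of 14 other laccase genes, 6 were at 0 in all 12 libraries and 5 passed the filter. LAC10 was lower in ap2-12 (0.808 against 1.77 CPM, log2 fold change -1.11, SE 0.31, adjusted p = 0.0313), although its lowest WT library, at 0.804 CPM, lay among the ap2-12 values. LAC1 (-0.38, adjusted p = 0.284), LAC8 (0.62, adjusted p = 0.348) and LAC6 (-0.53, adjusted p = 0.361) did not pass. In rAP2-VENUS LAC8 was at 0.29 (adjusted p = 0.969) and LAC1 at -0.15 (adjusted p = 0.970), and none of the 5 was called. LAC2 had the coding site with fewest unpaired bases to miR397a, 2 of them, and was read at no more than 0.427 CPM in any library.

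Peroxidases moved in both directions in ap2-12. PRX66, a class III peroxidase of xylem vessels, was at 8.54, 5.93, 8.48 and 9.31 CPM in WT, at 1.68, 3.28, 3.45 and 3.17 CPM in ap2-12 and at 14.9, 13.3, 14.2 and 14.0 CPM in rAP2-VENUS. The 3 genotypes did not overlap and stood in the same order as for LAC4 and LAC17. PRX66 fell in ap2-12 (log2 fold change -1.46, SE 0.20, adjusted p = 0.000363), and its value of 0.81 in rAP2-VENUS against WT had an adjusted p of 0.0855, of 0.0268 with the replicate block and of 0.00169 in DESeq2. PRX71 rose in ap2-12 from 0.911 to 1.95 CPM (log2 fold change 1.08, SE 0.25, adjusted p = 0.0118) and was at -0.45 in rAP2-VENUS (adjusted p = 0.833). PRX42 (-0.23, adjusted p = 0.198) and PRX72 (-0.49, adjusted p = 0.255) did not pass in ap2-12, and PRX64 was at 0 in all libraries.

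Among the regulators of secondary walls and lignin, 19 of 28 passed the filter, and in ap2-12 6 of them were lower and 0 higher. MYB46, a master switch of secondary wall synthesis, fell from 1.38 to 0.315 CPM (log2 fold change -2.08, SE 0.39, adjusted p = 0.0032). The vessel switches VND4 (-1.18, adjusted p = 0.00591) and VND6 (-1.28, adjusted p = 0.0126) fell as well, as did the NAC factor SND2, from 1.82 to 0.906 CPM (adjusted p = 0.0089). KNAT7 (-1.74, adjusted p = 0.0128) and MYB20 (-1.71, adjusted p = 0.015) were the remaining 2 and were named after their values were seen. All 6 were below 4 CPM in every library. The fibre switch NST3 was at 0 to 0.0691 CPM and was not tested. In rAP2-VENUS none of the 19 was called, with the repressor MYB4 at -0.40 (adjusted p = 0.673) and XND1, a NAC factor that represses xylem differentiation, at -0.40 (adjusted p = 0.818).

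Of the genes upstream and beside the pathway, none of 9 for phenylalanine supply was called in ap2-12 by edgeR or DESeq2, with ADT4 at 0.50 (adjusted p = 0.253) and ADT1 at -0.26 (adjusted p = 0.351), both arogenate dehydratases. None of the 4 F-box genes passed with either tool, with KFB39 at -0.97 (adjusted p = 0.184) and KFB01 at 0.57 (adjusted p = 0.286). The flavonoid genes ANS and DFR, of anthocyanin synthesis, had log2 fold changes of -2.76 (adjusted p = 0.0657) and -2.87 (adjusted p = 0.0997), and none of the 7 tested was called by edgeR. DESeq2 called ANS lower (adjusted p = 0.0243). Their WT values were spread by replicate number, from 2.13 to 22.4 CPM for ANS.

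In the hydroxycinnamate branch, edgeR called 3 of 7 genes higher and 1 lower in ap2-12, where 1063 of all 18807 genes were called higher. DESeq2 called 4 higher, adding UGT84A2, a sinapate glucosyltransferase, at 44.1 against 19.4 CPM (adjusted p = 0.082 in edgeR and 0.0255 in DESeq2). Over all genes DESeq2 called 1472 higher. REF1, an aldehyde dehydrogenase that forms ferulic and sinapic acid, fell from 25.6 to 20.5 CPM (log2 fold change -0.32, SE 0.08, adjusted p = 0.0146). SHT, the spermidine hydroxycinnamoyl transferase of the tapetum, was at 0, 0.135, 0.0731 and 0 CPM in WT and at 0.0764, 8.11, 3.73 and 20.8 CPM in ap2-12 (adjusted p = 0.0173). TSM1, a tapetal methyltransferase, was at no more than 0.104 CPM in WT and at 0.0764, 8.51, 2.97 and 32.3 CPM in ap2-12 (adjusted p = 0.0239). CYP98A8, a relative of C3H1 that acts in pollen phenolics, was at 1.39 to 1.77 CPM in WT and 2.45, 3.62, 3.11 and 12.5 CPM in ap2-12 (log2 fold change 1.81, adjusted p = 0.045). TSM1, CYP98A8, UGT84A2 and FDH were named after their values were seen. For SHT, TSM1 and CYP98A8, ap2-12 replicate 4 was highest and replicate 1 lowest. The summed tapetum markers of ap2-12 had the same extremes, at 1227 and 387 CPM, and their part in these calls was not tested. With the replicate block, SHT (adjusted p = 0.0414) and TSM1 (adjusted p = 0.00436) were also called higher in rAP2-VENUS than in WT, where rAP2-VENUS replicate 4 held 4.46 and 9.56 CPM. Without the block none of the 7 was called in rAP2-VENUS.

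Reads of overlapping genes may be mixed, since no source used here says whether the counting took strand into account. In RefSeq TAIR10.1 C4H, HCT, CCOAOMT1, CAD5 and LAC4 overlap no other annotated gene. LAC17 lies opposite a noncoding RNA gene over 2266 bases and CCR1 opposite another over 2457 bases. CCR1 also overlaps an opposite-strand protein-coding gene by 516 bases. C3H1, LAC11 and 4CL1 overlap opposite-strand genes by at most 529, 28 and 24 bases.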

How the data were processed

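The authors deposited unnormalised counts of reads for each gene and library. The submitters' processing notes name TopHat2, SAMtools, HTSeq and build TAIR10, with neither versions nor settings. Per the labels, polyA RNA was sequenced as single reads of 150 bp. Genes were kept with filterByExpr (18807 of 27416), scaled by TMM and fitted in edgeR 4.0.16 (R 4.3.3) by quasi-likelihood over all 12 libraries with genotype as the only term. P-values were adjusted by Benjamini-Hochberg over all genes, with a threshold of 0.05. The SE is the log2 fold change over the root of its F value. Exon lengths, names and sequences came from RefSeq TAIR10.1, in which 697 rows were not found. The fit was tested on simulated counts. The biological coefficient of variation was 0.174, and libraries of the same genotype differed by more than sampling noise (chi-square per degree of freedom at least 5.00). Alternatives used DESeq2 1.42.0 and limma 3.58.1.

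The members and the 16 gene lists were chosen with earlier results of these data known. All members are named. Up to 4 genes with the smallest adjusted p in ap2-12 (up to 2 in rAP2-VENUS) were taken from the lists of other enzymes, laccases, peroxidases and regulators, and up to 2 from the other pathway lists and xylem markers. Genes of like pattern were the 6 with the highest correlation.

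Replicate numbers come from the labels. Deviations of same-numbered rAP2-VENUS and WT libraries from their group means correlated across genes at 0.63, 0.23, 0.20 and 0.43. On these values the numbers were taken to pair the libraries of these 2 genotypes, which the labels do not state. rAP2-VENUS replicate 4 correlated better with WT replicate 3 (0.65), and rAP2-VENUS replicate 2 with WT replicate 1 (0.25). The block was fitted to all 12 libraries, so ap2-12 shared its replicate terms.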

Additional observations from a re-analysis of the deposited data

Results flagged for a closer look

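LAC11 in ap2-12 replicate 1, at 1.07 CPM (14 counts), stood far below the other ap2-12 libraries at 2.75 to 2.90 CPM. It was 1 of 30 groups of 4 libraries (10 genes in 3 genotypes) in which the gap of an extreme library to its neighbour passed 0.829 of the range, and chance alone marks about 1 in 20 such groups. LAC4 and LAC17 were also lowest in that library among the ap2-12 libraries, at 2.45 and 2.37 CPM, and so was the sum of the xylem and wall markers, at 43.6 CPM. Without that library the log2 fold changes in ap2-12 were -1.35 for LAC11, -1.47 for LAC4 and -1.38 for LAC17.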

How the results depend on the processing

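The 5 members called in ap2-12 and the 5 called between rAP2-VENUS and ap2-12 kept their direction and their call under all 20 alternatives (other scalings, filters and tests, the 8 libraries of a comparison alone, the replicate block and each library left out). Of 600 recomputed member values 549 did not change direction or call, 19 newly passed the threshold and 32 changed sign, all of them of uncalled enzyme genes near 0; the cause was not tested. The replicate number as a block raised the genes called from 2866 to 5419 in ap2-12 (members from 5 to 8, adding HCT, CCOAOMT1 and CCR1 at adjusted p = 0.00252, 0.00659 and 0.0216, and 3 flavonoid, 2 phenylalanine supply and 2 F-box genes where there had been 0), from 118 to 424 in rAP2-VENUS (members from 0 to 2) and from 3686 to 6215 between the lines (members from 5 to 9). For ap2-12 the same-number correlations with WT were 0.60, -0.01, 0.47 and 0.39, and between the lines 0.54, 0.06, 0.05 and 0.56. Each set held a value near 0, so the numbers were not taken to pair these samples. Other values were as high as those of rAP2-VENUS with WT, and 29.5% of all genes differed by replicate number with all genotypes in the model. In none of the 3 comparisons did every library correlate best with its own number. For rAP2-VENUS against WT DESeq2 called 340 genes and 2 members, and limma-voom 2 members.

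Leaving out single libraries gave 2038 to 3143 genes and 5 to 6 members in ap2-12, 55 (without rAP2-VENUS replicate 3) to 155 genes and 0 to 2 members (2 without ap2-12 replicate 1) in rAP2-VENUS, and 2792 to 4097 genes and 5 to 6 members between the lines. The rAP2-VENUS count also fell to 69, 57 and 58 without WT replicates 1, 2 and 4, and to 76, 64 and 71 without rAP2-VENUS replicates 1, 2 and 4. HCT passed in ap2-12 without WT replicate 3 and without ap2-12 replicate 1. Log2 fold changes that crossed 0 on leaving out libraries ran from -0.31 to 0.13 for C3H1 in ap2-12. In rAP2-VENUS against WT they ran from -0.31 to 0.0467 for C4H, -0.15 to 0.24 for 4CL1, -0.17 to 0.00186 for HCT, -0.16 to 0.14 for C3H1, -0.0887 to 0.31 for CCOAOMT1 and -0.15 to 0.18 for CCR1, which was 0.00923 in limma-voom. Between the lines C3H1 ran from -0.13 to 0.24, and was -0.00181 by median-of-ratios scaling, -0.00282 in DESeq2, -0.0286 by upper-quartile scaling and -0.0104 with no filter. The 6 members that differed by replicate number did so under every alternative that was run for that count. Under the other scalings the median log2 fold change of all genes ran from -0.0424 between the lines to 0.0234 in ap2-12, both by upper-quartile scaling. The main fit had -0.0121 and 0.00149 there. Depth limits LAC10 and the 6 called regulators, with at most 54 counts in any library, and PRX71, with at most 38.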
